A study of Homo sapiens with 9 samples.

Results

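The genes described here were expressed in both clear cell renal cancer (ccRCC) lines of the series and were close to silent in the normal kidney line. They were selected on the raw counts: a mean of at least 50 counts in 786-O and in 786-M1A, and at most 10 counts in each HK2 library. Of the 28395 genes of the count table, 11757 had a mean of at least 50 counts in both cancer lines, and 110 of these met the limit in HK2. After 6 genes on chromosome Y and 3 genes named in the rule were left out, 101 genes remained, which is 0.859% of the genes of both cancer lines. RNA sequencing was done on HK2, a parental line of normal proximal tubule cells, on 786-O, established from a primary tumour, and on 786-M1A, derived from 786-O through lung metastasis. All 3 lines were grown stably in Plasmax, a medium modelled on the nutrients of human serum, no treatment was given, and 3 libraries were made per line. Normal kidney was represented by a single line and the cancers by a parent and its own derivative, so differences between lines and differences between disease states cannot be told apart.

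ccRCC arises from tubular epithelium and usually loses VHL, which leaves the hypoxia-inducible factors HIF active. Cell lines also switch on genes of other lineages and of development, many of which are closed by DNA methylation or chromatin in cells that do not use them. The promoters of widely used genes are commonly rich in CpG, whereas promoters of genes used in few tissues are often poor in CpG and may carry a TATA box.

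The libraries held between 30212291 and 45362428 counts, and 9 of 9 correlated best with a library of their own line. Values are given as CPM, counts scaled to library totals corrected by TMM. The kidney epithelium marker PAX8 was above 100 CPM in every library, while LRP2, SLC22A6 and SLC22A8 of the proximal tubule had 0 counts in all 9 libraries. Of 11 proximal tubule markers, 3 reached a mean of 1 CPM in HK2 and 4 in each cancer line. Of the 8 ccRCC markers, 5 reached a mean of 1 CPM in each line, and their summed level was 326 to 347 CPM in HK2, 630 to 647 in 786-O and 1017 to 1081 in 786-M1A. VEGFA was at 18.8 to 19.8 CPM in HK2, 150 to 170 CPM in 786-O and 327 to 334 CPM in 786-M1A, and EGLN3 and CD70 were ordered alike. NNMT was at 244 to 261 CPM in HK2 and at 87.8 to 105 CPM in the cancer libraries, ANGPTL4 lay between 2.17 and 4.04 CPM in all lines, and CA9 stayed at or under 0.0709 CPM throughout.

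The 101 genes summed to 213, 275 and 271 counts in the HK2 libraries, or 6.86, 6.83 and 5.86 CPM. In 786-O their sums ranged from 1468 to 1535 CPM, and those in 786-M1A from 1445 to 1500 CPM. In HK2, 17 genes had 0 counts in all 3 libraries and 57 had at most 3 counts in every library. These levels chose the genes, so they are described and not tested. The limit itself fell between close values. Just inside it were HOXC8 with 10, 10 and 10 counts in HK2, ODAD4 with 8, 10 and 8, and EGFLAM with 5, 10 and 6. Just outside were EFEMP2 with 3, 11 and 4, MIR100HG with 2, 6 and 11, and SLAMF8 with 5, 4 and 11. On the side of the cancer lines, PSORS1C3 and SERPINB9 entered with a mean of 51.3 counts in 786-O and SLCO2B1 with 51.7, while SEPTIN1 and PTPRN2 missed with 49.7 and LBH with 48.3. In 786-M1A the lowest means inside were those of COL13A1 (52 counts), CCDC152 (53.3) and SLC15A3 (53.7), and the highest outside were those of LINC00942 (46.3), BARX2 (46) and UGT1A9 (45). A further 34 genes reached the limit in 786-O but not in 786-M1A, and 29 reached it in 786-M1A but not in 786-O.

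Most of the genes were expressed at a low level. Their median level was 5.35 CPM in 786-O, and 4.92 CPM for 786-M1A, against 35.7 and 36.1 CPM for all genes of both cancer lines, and 26 genes reached 10 CPM in both lines. The exceptions were ALDH1A1, a retinaldehyde dehydrogenase (chr9:72900671-72953053), and FLG, the filaggrin of the outer skin layer (chr1:152302165-152325239), which together held 33.8% of the genes' counts in 786-O and 26.7% in 786-M1A. ALDH1A1 was at 340, 336 and 368 CPM in 786-O, at 195, 194 and 195 CPM in 786-M1A and had 1, 1 and 2 counts in HK2. Its level in 786-O was 10226 times that in HK2, with a 95% counting interval from 3994 to 37532. FLG was at 154, 182 and 147 CPM in 786-O and at 175, 226 and 190 CPM in 786-M1A, with 2, 1 and 1 counts in HK2. Per kilobase of exon, the levels in 786-M1A were 68.5 CPM per kb for ALDH1A1, 16.5 for CYTIP, 16.2 for IGFL3, a small secreted factor, 15.4 for the long FLG transcript and 10.6 for PRAME. WT1 and BHMT2 had no counts in HK2, and a floor of 3 counts per HK2 library puts their levels in 786-O at least 436-fold and at least 530-fold higher. Among members with counts in HK2, the lowest ratios to HK2 were 7.03 in 786-O, for SLC15A3, and 6.88 in 786-M1A, for ODAD4. Intervals and floors cover counting error only.

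**Figure D1:**
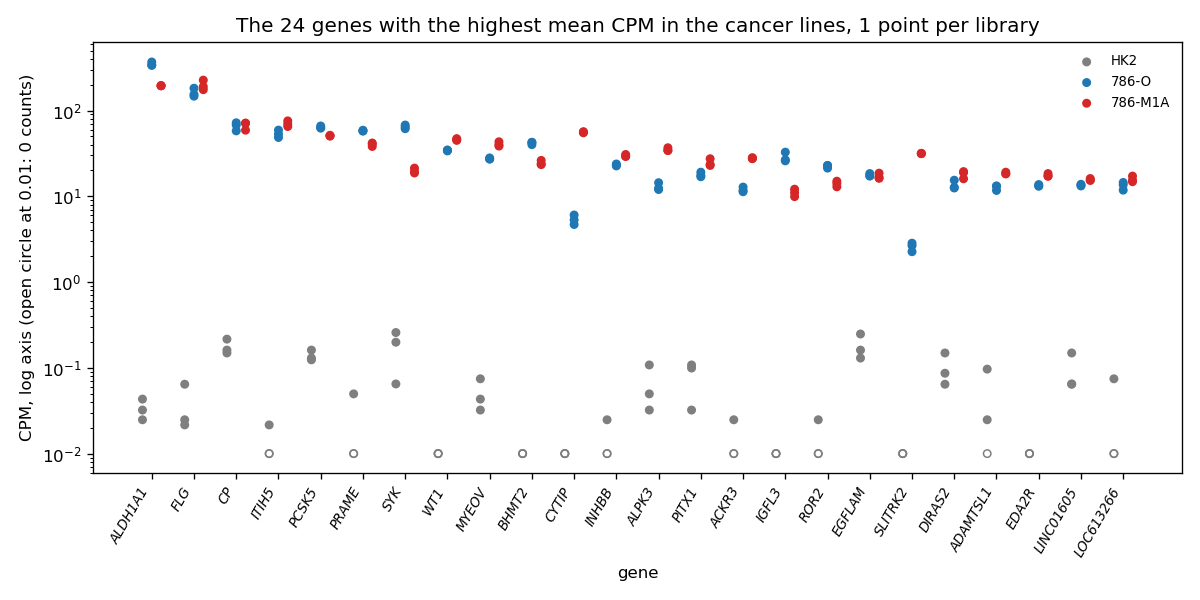
The 24 genes with the highest mean CPM over the cancer libraries, with CPM on a log axis and 1 point per library for HK2, 786-O and 786-M1A; open circles at the bottom are libraries with 0 counts. The levels chose the genes, so the gap between HK2 and the cancer lines follows from the rule. The cancer lines lie close together for CP and far apart for CYTIP and SLITRK2.

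Sequence at the promoters was not used by the rule. RefSeq promoters (GRCh38.p14, 250 bases before to 50 after the start) were found for 76 of the 101 genes and for 9493 genes of both cancer lines. A promoter was called CpG-rich when its GC content was at least 50% and its observed over expected CpG at least 0.6. This held for 36 of 76 promoters (47.4%), against 82.7% of the promoters of genes of both cancer lines and 59.3% of 18235 promoters of all genes in the count table. The median number of CpG pairs was 17, against 27 and 20 in those 2 sets. The last 200 bases before the start are shown for 3 genes with few CpG, ALDH1A1 (chr9:72953054-72953253, minus strand), CYTIP (chr2:157444090-157444289, minus strand) and PLEK (chr2:68365082-68365281, plus strand). CYTIP and PLEK belong to blood cells and had the second largest rise and the second largest fall between the cancer lines. CpG pairs are in capitals, and there are 5, 0 and 4 of them.
ALDH1A1: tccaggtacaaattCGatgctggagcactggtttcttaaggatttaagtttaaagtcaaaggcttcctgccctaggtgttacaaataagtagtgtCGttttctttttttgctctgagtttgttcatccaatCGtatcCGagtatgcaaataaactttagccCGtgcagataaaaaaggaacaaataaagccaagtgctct
CYTIP: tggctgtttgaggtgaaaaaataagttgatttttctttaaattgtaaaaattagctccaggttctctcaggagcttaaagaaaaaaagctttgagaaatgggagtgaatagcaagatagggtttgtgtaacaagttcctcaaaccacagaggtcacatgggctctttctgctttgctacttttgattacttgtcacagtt
PLEK: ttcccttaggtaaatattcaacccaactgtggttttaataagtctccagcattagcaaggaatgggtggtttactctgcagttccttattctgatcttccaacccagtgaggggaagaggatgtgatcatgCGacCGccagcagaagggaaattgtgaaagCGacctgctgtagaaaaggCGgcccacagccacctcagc

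For contrast, 2 CpG-rich promoters are shown, those of SP8 (chr7:20786887-20787086, minus strand), a limb and forebrain transcription factor, and of INHBB (chr2:120345936-120346135, plus strand), the beta B subunit of activin and inhibin, which had the most CpG pairs of the 76. The whole promoters held 33 and 58 pairs, against 50 for TMEM163 and 47 for ADAMTS2. That of the developmental factor WT1 held 21 pairs and fell just short of CpG-rich, with 70% GC and an observed over expected CpG of 0.575. The overlapping promoter of WT1-AS, with 24 pairs and a value of 0.678, was CpG-rich. For SP8 and INHBB, the last 200 bases before the start held 28 and 36 CpG pairs, again in capitals.
SP8: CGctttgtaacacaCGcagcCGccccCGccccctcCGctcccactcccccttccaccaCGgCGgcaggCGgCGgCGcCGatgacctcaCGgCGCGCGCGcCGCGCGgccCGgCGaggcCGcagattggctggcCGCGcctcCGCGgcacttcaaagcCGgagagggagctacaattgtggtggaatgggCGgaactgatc
INHBB: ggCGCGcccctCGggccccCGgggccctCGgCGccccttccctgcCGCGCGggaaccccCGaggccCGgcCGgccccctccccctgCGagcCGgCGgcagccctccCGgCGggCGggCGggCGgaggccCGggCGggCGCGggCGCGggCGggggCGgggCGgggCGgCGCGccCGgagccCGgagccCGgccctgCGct

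A TATA box, searched as TATAAA on the sense strand shortly before the start, was found in 5 promoters (6.58%), those of ALPK3, C1QL3, C5orf46, FLG and SERPINB9. It was found in 1.39% of the promoters of genes of both cancer lines and in 3.3% of those of all genes. FLG (chr1:152325240-152325439, minus strand) and C5orf46 (chr5:147906539-147906738, minus strand), a small secreted protein gene that rose in 786-M1A, are shown with the box in capitals.
FLG: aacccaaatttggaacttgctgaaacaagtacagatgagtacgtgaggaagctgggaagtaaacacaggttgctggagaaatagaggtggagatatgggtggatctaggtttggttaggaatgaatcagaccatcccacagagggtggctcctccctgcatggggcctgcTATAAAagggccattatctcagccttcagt
C5orf46: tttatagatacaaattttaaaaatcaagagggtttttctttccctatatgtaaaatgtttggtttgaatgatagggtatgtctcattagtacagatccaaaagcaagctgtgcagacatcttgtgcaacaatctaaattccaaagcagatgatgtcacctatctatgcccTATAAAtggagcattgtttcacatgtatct

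Other short motifs were searched on both strands. The AP-1 motif TGANTCA was in 11.8% of the 76 promoters against 4.28% of those of genes of both cancer lines, and the GATA motif AGATAA in 15.8% against 4.63%. The HIF core (ACGTG or GCGTG) was in 47.4% against 64.8%, the E-box CACGTG, which holds ACGTG, in 5.26% against 10.3%, the ETS motif CCGGAAG in 3.95% against 20.5% and the SP1 motif GGGCGG in 48.7% against 71.2%. The HNF1 motif GTTAAT was in 3.95% against 3.37%. Over the promoters of all genes of the table, the shares were 6.32% for TGANTCA, 8.3% for AGATAA, 54.5% for the HIF core, 8.47% for CACGTG, 13.2% for CCGGAAG, 54.9% for GGGCGG and 5.64% for GTTAAT, which for GTTAAT is above the members' share. A match describes the letters and not a bound site. The HIF core and the E-box, ETS and SP1 motifs each hold a CpG pair, while the AP-1, GATA and HNF1 motifs hold none. The members' promoters had fewer CpG pairs than those of genes of both cancer lines (median 17 against 27). The motif shares were not matched for this, and whether they differ beyond base composition was not tested. The 36 CpG-rich and the 40 other members had median levels of 6.86 and 5.06 CPM over the cancer libraries. Among those tested, the median size of the difference between the cancer lines was 0.54 and 0.56 on the log2 scale, with 16 higher and 11 lower in 786-M1A of the 32 CpG-rich members and 15 higher and 14 lower of the 37 others. Over all genes tested, 27.9% were higher and 28% lower, and these were not divided by promoter class.

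**Figure D2:**
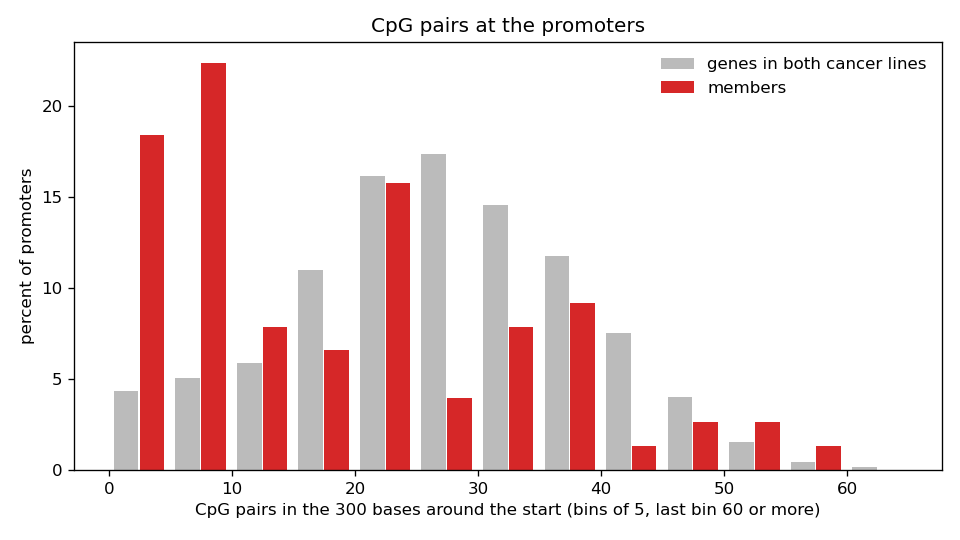
Percent of promoters by the number of CpG pairs in the 300 bases around the start, in bins of 5, for the 76 members with a promoter and for the 9493 genes of both cancer lines. The members pile up below 10 CpG pairs, where few of the genes compared lie, and form a further group between 20 and 40.

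The comparison of 786-M1A with 786-O, which concerns progression to metastasis, was not used to choose the genes beyond the limit of 50 counts in each line, and it was tested with edgeR over 12695 genes. Of the 101 genes, 91 passed the filter of a mean of 50 counts over the 9 libraries, and 10 did not, since the HK2 libraries enter that mean. Of the 91, 72 differed between the lines at an adjusted p under 0.05 (79.1%, against 56% of all genes tested). In 786-M1A, 39 were higher (42.9%, against 27.9%) and 33 lower (36.3%, against 28%). With at least a 2-fold difference, 13 rose (14.3%, against 2.03%) and 11 fell (12.1%, against 4.55%). The libraries of the lines did not overlap for 71 of the 91 (78%, against 61.6%). In a fit of the 6 cancer libraries alone all 101 genes were tested, and 78 differed (77.2%, against 56.3%), 25 of them by at least 2-fold (24.8%, against 5.32%). The median log2 fold change was 0.08, against 0.00 over all genes tested, and the median size of the change was 0.55 against 0.17. All genes tested include genes with a mean under 50 counts in a cancer line, which the members cannot have. The members' median level was also lower than that of the genes of both cancer lines (5.35 against 35.7 CPM in 786-O). The shares were not matched for level or for this limit. With 3 libraries against 3, an exact two-sided permutation test of a single gene cannot give a p below 0.1, and all p-values measure only the spread between dishes of a line, which per the study's methods were plated in parallel on the day preceding extraction.

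**Figure D3:**
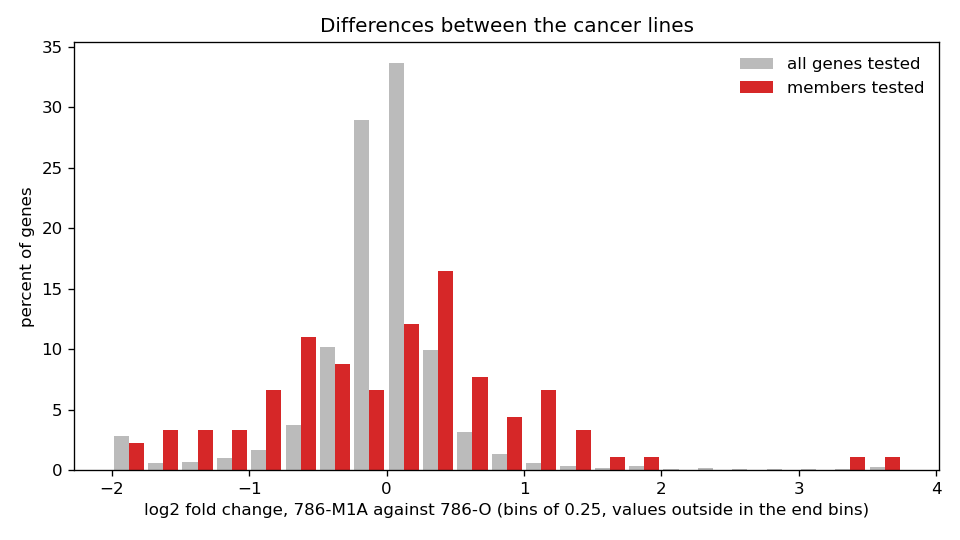
Percent of the 91 members tested and of all 12695 genes tested, by log2 fold change of 786-M1A against 786-O in bins of 0.25, the outermost bins also holding all values beyond them. All genes gather around 0, with 2.84% in the lowest bin and 0.221% in the highest, while the members spread to both sides, from -1.87 to 3.60.

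The largest rises were those of SLITRK2, a synaptic adhesion protein that shapes neurite growth, and CYTIP, a regulator of integrin adhesion in leukocytes. SLITRK2 was at 2.66, 2.26 and 2.84 CPM in 786-O and at 31.4, 31.7 and 31.5 CPM in 786-M1A. CYTIP was at 4.69, 5.31 and 6.05 CPM in 786-O and at 56, 55 and 56.6 CPM in 786-M1A. Both had 0 counts in every HK2 library, and neither overlapped between the cancer lines. The log2 fold changes were 3.60 ± 0.08 (SE, edgeR adjusted p = 6.14e-18) and 3.38 ± 0.07 (edgeR adjusted p = 1.84e-18), or 12.1-fold and 10.4-fold. SLC13A3, which carries dicarboxylates with sodium in the kidney, followed with 1.4, 1.59 and 1.63 CPM in 786-O against 7, 5.55 and 5.9 CPM in 786-M1A (log2 fold change 2.00 ± 0.13, edgeR adjusted p = 3.05e-11).

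Among the largest falls were those of CLEC2B, PLEK, SYK and IL21R. SYK, a tyrosine kinase downstream of immune receptors, was at 61.4, 64.1 and 67.7 CPM in 786-O and at 21.3, 19.4 and 18.7 CPM in 786-M1A (log2 fold change -1.70 ± 0.06, edgeR adjusted p = 1.89e-15). PLEK, pleckstrin of platelets and leukocytes, fell from 13.8, 13.1 and 14.4 CPM to 3.98, 4.12 and 4.15 CPM (log2 fold change -1.76 ± 0.09, edgeR adjusted p = 2.40e-13). CLEC2B, a ligand of a natural killer cell receptor, fell from 16, 16.1 and 17.2 CPM to 5.12, 3.73 and 4.65 CPM (-1.87 ± 0.10, edgeR adjusted p = 7.29e-13). In each case all libraries of 786-M1A lay below all libraries of 786-O. IL21R, the interleukin 21 receptor, fell by 1.68 on the log2 scale.

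**Figure D4:**
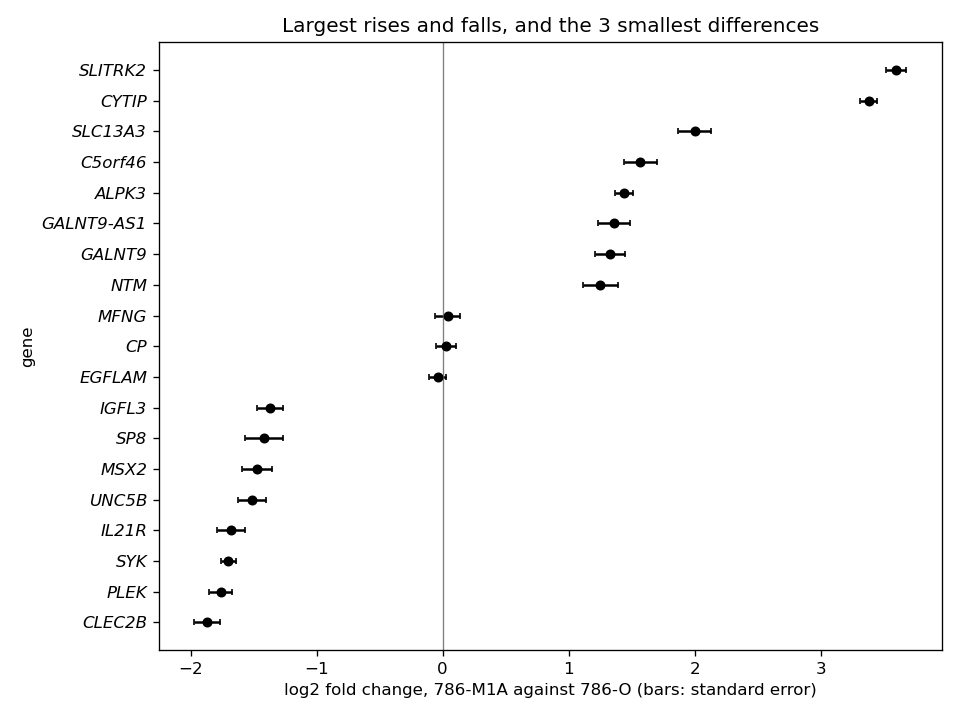
Log2 fold change of 786-M1A against 786-O with its standard error for the 8 members with the largest rise, the 8 with the largest fall and the 3 protein-coding members with the smallest difference. SLITRK2 and CYTIP stand apart above 3, and MFNG, CP and EGFLAM lie at 0.04, 0.03 and -0.04.

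Across the list of blood cell and immune genes, 8 of the 173 genes present in both cancer lines were members (4.62%). In 786-M1A, 2 of the 8 were higher and 5 lower, against 69 higher and 75 lower of the 201 genes of the list that were tested. CD163L1, a scavenger receptor of macrophages, rose with CYTIP, from a mean of 9.19 ± 0.579 CPM (SD, n = 3) to 14.5 ± 0.0728 CPM (log2 fold change 0.65 ± 0.08, edgeR adjusted p = 2.04e-07). The interferon-induced antiviral genes OAS2 (log2 fold change -0.95) and MX2 (-0.30) fell. The interferon-induced XAF1, outside the list and chosen like OAS2 and MX2 after its values were seen, also fell (-0.38), while EPSTI1 of the same kind was at 2.88 ± 0.592 CPM in 786-O and at 3.04 ± 0.27 in 786-M1A, a difference that did not pass the test. C1QL3, chosen after its values were seen, which the list takes by its name although it is a secreted protein of neurons, did not pass either (-0.09 ± 0.13). Of the markers of blood cells, PTPRC, CD3E, MS4A1 and HBB had 0 counts in all 9 libraries, and of the 9 only CD68, which epithelial lysosomes also hold, reached 1 CPM. Their summed level was 49.6 to 53.9 CPM in HK2, 26.8 to 27.8 in 786-O and 34.2 to 37.7 in 786-M1A.

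Developmental transcription factors made up 6 of the 193 such genes present in both cancer lines (3.11%). In 786-M1A, 3 of the 6 were higher and 2 lower, against 59 and 84 of the 230 tested. WT1, a zinc finger factor of the embryonic kidney (chr11:32387775-32435539), was at 34.6, 34.4 and 33.8 CPM in 786-O and at 45.5, 44.9 and 47 CPM in 786-M1A, with 0 counts in all HK2 libraries. Its rise was small but clear of the spread (log2 fold change 0.42 ± 0.05, edgeR adjusted p = 2.41e-07). PITX1, a hind limb factor, rose from a mean of 17.8 to 24.6 CPM (0.46 ± 0.07, edgeR adjusted p = 9.20e-06), and FOXA2, a pioneer factor of endoderm, from 6.78 to 9.52 CPM (0.49 ± 0.08, edgeR adjusted p = 4.50e-05). MSX2 and SP8, both of limb and craniofacial development, fell. MSX2 went from 4.76, 4.3 and 4.61 CPM to 1.83, 1.69 and 1.43 CPM (-1.47 ± 0.12, edgeR adjusted p = 5.61e-09), and SP8 from 4.83, 4.01 and 5.06 CPM to 1.77, 1.28 and 2.17 CPM (-1.42 ± 0.15, edgeR adjusted p = 4.48e-07). HOXC8 was at 3.04 CPM in 786-O and at 2.78 in 786-M1A and did not pass the test. No gene with a ZNF, ZFP, ZSCAN or ZKSCAN name was among the members, although 407 such genes were present in both cancer lines.

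Of the adhesion genes, 7 of the 70 present in both cancer lines were members (10%), 2 of them higher and 5 lower in 786-M1A, against 23 and 49 of the 99 tested. SLITRK2 and NTM, a neuronal cell adhesion molecule of the immunoglobulin family, rose, NTM from 2.12, 1.36 and 1.94 CPM to 4.12, 4.85 and 3.99 CPM (1.25 ± 0.14, edgeR adjusted p = 4.60e-07). The 5 protocadherins fell: PCDHB10 by 0.55, PCDHB9 by 0.50, PCDHGA10 by 0.66, PCDHGB6 by 0.67 and PCDHGB7 by 0.34 on the log2 scale. The call of PCDHGB7 (edgeR adjusted p = 0.0286) was lost with DESeq2 (adjusted p = 0.142), without 786-O replicate 3 (edgeR adjusted p = 0.135) and without 786-M1A replicate 1 or 2 (edgeR adjusted p = 0.1 and 0.0979). Clustered protocadherins give neurons their surface identity. The gamma cluster was not silent in HK2, as other gamma genes show, chosen after their values were seen. PCDHGC3 had 1705 to 2516 counts in HK2 and 2809 to 3133 in the cancer libraries. PCDHGA7 had 132, 132 and 181 in HK2 and 1 to 5 in the cancer libraries, and PCDHGB5 74, 87 and 129 against 0 to 2. PCDHGA9 went the other way, with 2 to 4 in HK2 and 15 to 40 in the cancer libraries. The gamma genes share their last exons, and the beta genes resemble each other, so the counting may have divided reads among them and the members are not independent.

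Among receptor kinases and guidance receptors, 4 of 58 were members (6.9%), 1 higher and 3 lower in 786-M1A, against 14 and 35 of the 75 tested. NTRK3, the receptor of neurotrophin 3, fell from 5.66, 6.62 and 6.59 CPM to 2.63, 2.58 and 2.91 CPM (-1.21 ± 0.11, edgeR adjusted p = 4.11e-09). UNC5B, a netrin receptor, fell from 6.09, 6.48 and 6.92 CPM to 2.49, 2.4 and 1.93 CPM (-1.51 ± 0.11, edgeR adjusted p = 2.43e-10), and ROR2, a receptor of WNT5A, from a mean of 22.3 to 14 CPM (-0.67 ± 0.07). PLXNA2, a semaphorin receptor, rose (0.46 ± 0.08). Of the 4 of 99 genes taken by the list of growth factors and guidance ligands (4.04%), INHBB (0.35 ± 0.05, edgeR adjusted p = 9.99e-06), SEMA5B (0.88 ± 0.07, edgeR adjusted p = 9.44e-10) and SEMA6D (1.03 ± 0.11, edgeR adjusted p = 1.05e-07) rose, and the fourth was IL21R, a receptor that matches by its name. SEMA5B, a semaphorin, was at 8.8, 9.54 and 10.7 CPM in 786-O and at 17.5, 18.3 and 17.5 CPM in 786-M1A. IGFL3, outside the lists, fell from 32.7, 25.9 and 26.6 CPM to 12.1, 9.91 and 11 CPM (-1.37 ± 0.10, edgeR adjusted p = 1.20e-07).

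Of the G protein-coupled receptors, 2 of 70 were members (2.86%). ACKR3, the scavenging receptor of the chemokine CXCL12, was at 11.3, 11.7 and 12.8 CPM in 786-O and at 27.4, 27.8 and 28.2 CPM in 786-M1A (1.22 ± 0.06, edgeR adjusted p = 5.28e-13). All libraries of 786-M1A were above those of 786-O, and HK2 had 0, 1 and 0 counts. The serotonin receptor HTR7 was at 1.9 CPM in 786-O and at 2.16 in 786-M1A, which did not pass the test.

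Of the list of xenobiotic, aldehyde, alcohol and steroid metabolism enzymes, 4 of 95 genes were members (4.21%), none of them higher in 786-M1A and 2 lower, against 30 higher and 47 lower of the 121 genes of the list that were tested. ALDH1A1 fell by 0.84 ± 0.04 on the log2 scale (edgeR adjusted p = 5.83e-14). BHMT2, which the list takes and which methylates homocysteine, fell from 42.6, 40 and 42.5 CPM to 26.2, 23.9 and 23.4 CPM (-0.77 ± 0.06, edgeR adjusted p = 4.59e-10). GSTM4 (8.21 and 7.72 CPM) and UGT1A8 (9.02 and 9.39 CPM) did not pass the test, and both have close relatives, UGT1A8 sharing exons with the other UGT1A genes. Of these, UGT1A6, chosen after its values were seen, had 14 to 16 counts in HK2, 4548 to 5391 in 786-O and 2925 to 2954 in 786-M1A. The transporters, 4 of 241 (1.66%), held SLC13A3, SLC45A1, a sugar carrier that rose by 0.58 ± 0.13 (edgeR adjusted p = 5.80e-04), SLC15A3 and the organic anion carrier SLCO2B1. The latter pair did not pass the filter. In the fit of the cancer lines alone SLCO2B1 rose (log2 fold change 1.04, edgeR adjusted p = 1.72e-04), and SLC15A3 did not pass the test (0.05, edgeR adjusted p = 0.818).

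Among the 10 most abundant members, FLG was higher in 786-M1A by 0.29 ± 0.11 without passing the threshold (edgeR adjusted p = 0.0523), and its libraries overlapped. Deviations of same-numbered libraries of the lines correlated weakly (0.188 to 0.356, against -0.281 to 0.118 for unlike numbers). The rise of FLG passed once the replicate number entered the fit as a block (edgeR adjusted p = 1.45e-05). CP, the ferroxidase ceruloplasmin and the 1 member among 53 HIF targets present in both lines (1.89%), was at 57.9, 67.8 and 71.9 CPM in 786-O and at 59, 71.4 and 70.8 CPM in 786-M1A, with no difference past the threshold (0.03 ± 0.08, edgeR adjusted p = 0.809). HPS3 lies on the opposite strand of the same locus and had 2745 to 3995 counts in HK2 libraries, in which CP had 5 to 10. ITIH5, an inhibitor that binds hyaluronan, rose from 48.5, 53 and 59.1 CPM to 65.1, 75.7 and 69.6 CPM (0.39 ± 0.07, edgeR adjusted p = 1.40e-04).

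Of the list of matrix proteins, proteases and inhibitors, 6 of 149 were members (4.03%), and 4 were tested. ADAMTS2, a procollagen protease (0.87 ± 0.09, edgeR adjusted p = 2.33e-08), and ADAMTSL1 (0.55 ± 0.07, edgeR adjusted p = 1.48e-06) rose. PCSK5, a proprotein convertase, fell from a mean of 63.8 ± 1.92 to 50.8 ± 0.494 CPM (SD, n = 3; -0.33 ± 0.04, edgeR adjusted p = 7.93e-07). EGFLAM, a matrix protein of synapses and muscle, was at 17.7 and 17.1 CPM. COL13A1 and SERPINB9 were below the filter. In the fit of the cancer lines alone COL13A1 fell (-0.46, edgeR adjusted p = 0.0326) and SERPINB9, an inhibitor of granzyme B, rose (0.59, edgeR adjusted p = 0.00643). Fibroblast markers moved between these lines as well: their summed level was 77.8 to 87.2 CPM in HK2, 282 to 351 in 786-O and 302 to 307 in 786-M1A, mostly COL1A1 in 786-O and PDGFRB in 786-M1A, while COL1A2 was at or under 0.0945 CPM in every library. The part of these levels in the results was not tested.

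PRAME, a germ line antigen expressed in many tumours, was the 1 member among 37 cancer-testis genes present in both lines (2.7%). It was at 58.9, 58.1 and 57.5 CPM in 786-O and at 40.6, 38.1 and 41.8 CPM in 786-M1A (-0.54 ± 0.05, edgeR adjusted p = 1.13e-08), against 0, 2 and 0 counts in HK2. TERT, the telomerase reverse transcriptase, chosen after its values were seen, fell from 3.59, 3.16 and 3.76 CPM to 2.1, 1.9 and 1.96 CPM (-0.82 ± 0.12, edgeR adjusted p = 5.43e-06) and had 4, 3 and 4 counts in HK2. MYEOV, a gene amplified in some tumours, rose from 28, 27.2 and 27.2 CPM to 43.2, 38.5 and 39.8 CPM (0.56 ± 0.05, edgeR adjusted p = 7.44e-09). ALPK3, a kinase-like protein of muscle, rose from 12, 14.4 and 12.4 CPM to 34.2, 36.8 and 34.2 CPM (1.44 ± 0.07, edgeR adjusted p = 7.42e-14). Neither gene's libraries overlapped. MFNG, which adds sugars to Notch receptors, was at 6.13 and 6.29 CPM and did not pass the test.

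Of 500 genes of small GTPases, their regulators and signalling enzymes, 2 were members (0.4%): DIRAS2, a small GTPase, rose (0.42 ± 0.08, edgeR adjusted p = 3.12e-04), and the phosphatase DUSP4 was at 3.97 ± 0.615 CPM in 786-O and at 3.32 ± 0.131 in 786-M1A (SD, n = 3; edgeR adjusted p = 0.076, and 0.0159 without 786-O replicate 2). Of 175 cytoskeleton, muscle and cilia genes, the tropomyosin TPM2 was the single member (0.571%) and rose (0.89 ± 0.13, edgeR adjusted p = 7.88e-06). Of 69 genes with names of ion channels, 2 were members (2.9%), and neither is a channel: TMEM163, a zinc transporter of vesicles, rose (1.02 ± 0.11, edgeR adjusted p = 3.54e-08), and KCNQ1OT1 is a non-coding RNA. None of the 4 genes present in both lines that are often deleted in human populations was a member.

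**Figure D5:**
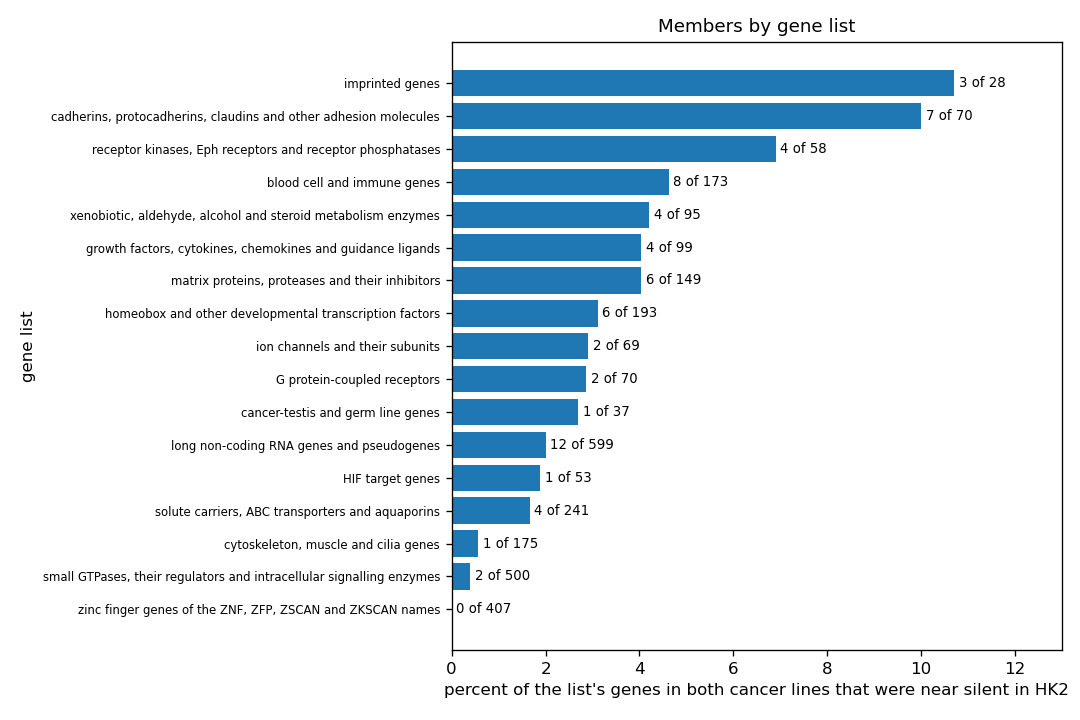
Percent of the genes of each list that were present in both cancer lines and near silent in HK2, with the number of members and of genes present beside each bar. The list of imprinted genes, in which WT1 and WT1-AS share a locus, and that of adhesion molecules lead, and zinc finger genes have no member among 407. The share over all genes of both cancer lines was 0.859%.

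Long non-coding RNA genes made up 11 of the 101 (10.9%, against 2.59% of the genes of both cancer lines), protein-coding genes 87 (86.1%, against 94.6%), and 2 identifiers had no symbol. With the pseudogene POU5F1P4, named after its values were seen, 12 of 599 non-coding genes and pseudogenes were members (2%), and of the 9 tested 6 were higher and 1 lower in 786-M1A, against 155 higher and 118 lower of the 648 genes of the list that were tested. LOC613266 (0.25 ± 0.09, edgeR adjusted p = 0.02) and LINC01605 (0.21 ± 0.06, edgeR adjusted p = 0.00793) were the most abundant, and the call of LOC613266 was lost without 786-O replicate 1 or 786-M1A replicate 3 (edgeR adjusted p = 0.0989 and 0.089). LINC01929 rose from 2.84, 3.59 and 3.5 CPM to 8.36, 6.15 and 7.4 CPM (1.15 ± 0.12, edgeR adjusted p = 3.24e-08), and HCG4 from 4.7 to 6.54 CPM (0.48 ± 0.09, edgeR adjusted p = 1.02e-04).

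Imprinted genes can be active from a single parental copy. Their list gave 3 members of 28 present in both lines (10.7%): WT1, its antisense WT1-AS and KCNQ1OT1. WT1 and WT1-AS overlap at the same locus, and the number of active copies was not measured. KCNQ1OT1 is the RNA that silences its neighbours from the paternal copy. KCNQ1OT1 had 0 counts in every HK2 library and 1.25 to 2.9 CPM in the cancer libraries. The potassium channel gene KCNQ1, in which it lies on the opposite strand, had the reverse distribution, with 81, 86 and 106 counts in HK2 and 0 or 1 in each of the 6 cancer libraries. Between the cancer lines KCNQ1OT1 fell by 0.51 on the log2 scale (edgeR adjusted p = 0.0204), with overlapping libraries, and the call was lost without 786-M1A replicate 1 (edgeR adjusted p = 0.103). WT1-AS was below the filter, and in the fit of the cancer lines alone it rose like WT1 (0.52, edgeR adjusted p = 0.0109). Whether strand was used in counting is not given in the sources used here, so reads of WT1-AS and WT1, or of GALNT9-AS1 and GALNT9, may have been assigned to either gene of the pair.

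By position, chromosome 5 held 16 members among 552 genes of both cancer lines (2.9%), and chromosomes 4 and 14 held none among 420 and 379. The share over all genes of both cancer lines was 0.859%. The members on chromosome 5 include the clustered protocadherins, which are not independent of each other. Neighbouring members formed 10 runs with 21 genes, with at most 1 other gene of the table between them. Besides the protocadherins and the WT1 pair these were GALNT9 and GALNT9-AS1, EPSTI1 and DNAJC15, CCDC68 and LINC01929, LOC105373989 and INHBB, LINC00261 and FOXA2, LINC01411 and MSX2, and DIRAS2 and SYK. Some neighbours shared their direction between the cancer lines. GALNT9, which starts O-glycans on proteins, rose from 6.27, 6.08 and 5.65 CPM to 17, 13.6 and 14.8 CPM (1.33 ± 0.12, edgeR adjusted p = 9.09e-08), and GALNT9-AS1 from 1.39 to 3.57 CPM (1.36 ± 0.13, edgeR adjusted p = 6.45e-09). DIRAS2 and SYK moved in opposite directions. DNAJC15, a mitochondrial co-chaperone, rose (0.51 ± 0.08, edgeR adjusted p = 9.82e-06) while EPSTI1 beside it did not pass the test. CCDC68 was at 12.3 and 13.9 CPM, and its small rise (0.18 ± 0.07, edgeR adjusted p = 0.0378) lost its call with DESeq2 (adjusted p = 0.071) and without 786-O replicate 1 (edgeR adjusted p = 0.172) or replicate 2 or any library of 786-M1A (edgeR adjusted p between 0.053 and 0.0662). LINC01411 (2.85 and 2.42 CPM) did not pass the test, and LINC00261 and LOC105373989 did not pass it in the fit of the cancer lines alone (edgeR adjusted p = 0.106 and 0.751).

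The genes next to the members were examined in HK2. A directly adjacent gene with at least 50 counts in every HK2 library was found for 53 of the 99 members with a position (53.5%), against 78.9% of 11621 other genes of both cancer lines. Both adjacent genes had at most 10 counts in HK2 for 35 members (35.4%), against 13% of the others. Both measures are descriptions, since 21 members lie in runs with each other.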

How the data were processed

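RNA was extracted with RNeasy, and TruSeq Stranded mRNA libraries were made from replicate dishes. The methods name more dishes per line than the 3 libraries analysed here. The authors counted reads on genes with featureCounts of the Rsubread package on GRCh38 and deposited the counts as whole numbers, unfiltered and not normalized. The annotation version and the use of strand are not given in the sources used here. Library totals lay between 30212291 and 45362428, so that 3 counts correspond to 0.0649 to 0.0966 CPM. Symbols, positions and promoters came from RefSeq GRCh38.p14 (27745 of 28395 identifiers matched), exon lengths and overlaps from GENCODE release 44, with lengths for 97 members.

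The members, gene lists and tests were chosen with earlier results of these data known. Lists were matched by current symbols, and 52 members were in at least 1 of 18 lists. Counts were normalized by TMM (factors 0.967 to 1.03), and all genes reaching a mean of 50 counts over the 9 libraries were fitted with edgeR 4.0.16 (robust quasi-likelihood, a coefficient per line, 9 libraries) in R 4.3.3. The Benjamini-Hochberg adjustment covered 12695 genes, with a threshold of 0.05. Alternatives were RLE and upper-quartile scaling, DESeq2 1.42.0, limma-voom (limma 3.58.1), no filter, the 6 cancer libraries alone, the replicate number as a block, and each library left out. The replicate numbers come from the labels. Deviations of same-numbered 786-O and 786-M1A libraries correlated by 0.356, 0.198 and 0.188, and those of libraries with unlike numbers by -0.281 to 0.118. The number was therefore also fitted as a block, as 1 of the alternatives. The main fit had no block, so its p-values do not use this pairing. On simulated counts of 12666 genes for this contrast, edgeR called 93 of the 100 genes changed by 0.5 on the log2 scale, 100 of those changed by 1, and 11 unchanged genes.

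Genes were named by rule: the 10 highest in CPM, the 8 largest called rises and falls without overlap, up to 4 members per list (all where a list had 6 or fewer), the 3 on each side of every limit, runs of neighbours and the 3 smallest differences. Other names are given as chosen after their values were seen. The remaining markers, those of endothelium, summed to at most 1.25 CPM in any library, and those of kidney epithelium to 1569 to 1608 CPM in HK2, 802 to 859 in 786-O and 1032 to 1157 in 786-M1A. No other column was in the table. Exact permutation tests, figures and motif searches were run in Python 3.11.15.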

Additional observations from a re-analysis of the deposited data

How the results depend on the processing

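The numbers of members higher (39) and lower (33) in 786-M1A, of at least 2-fold calls (24), of calls over all genes (7103) and the median log2 fold change (0.085) stayed within 1.5 times or within the spread under every alternative run. With the replicate block they were 40, 33, 24, 7157 and 0.079, and the block changed no call of a member other than that of FLG. Leaving out each library gave 35 to 41, 29 to 33, 22 to 25, 6372 to 7247 and 0.062 to 0.171, and between 100 and 119 members. The number of members depended on its limits: 17 with 0 counts in HK2 and 63 with a mean of 100 in both cancer lines. With 100 bases before the start, where fewer bases were searched, the HIF core was in 26.3% of member promoters against 44% of those of genes of both cancer lines, TGANTCA in 5.26% against 2.21%, AGATAA in 6.58% against 1.44% and GTTAAT in 1.32% against 1.19%, and 53.9% against 85% were CpG-rich. These motif shares were not matched for CpG content either. Among 63 named genes tested, no sign changed where the difference was called. Calls were lost for CCDC68, PCDHGB7 (without a filter, edgeR adjusted p = 0.0546), KCNQ1OT1 and LOC613266 under the settings named with them, and gained for DUSP4 without 786-O replicate 2 (edgeR adjusted p = 0.0159) and for FLG with RLE (edgeR adjusted p = 0.0431), upper-quartile scaling (0.0468), DESeq2 (0.000821) and limma-voom (0.00554), and without HK2 replicate 3, 786-O replicate 2 or 786-M1A replicate 1 or 2 (0.0019 to 0.0468). CCDC152, KCNQ1OT1, PCDHGB6 and TPM2 fell under the filter, and then had no test, in some fits that left out a library. A mean near the limit of 50 counts limits what the lowest members can show.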

Other observations

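Several members that belong to none of the lists also differed between the cancer lines, and they are given here as values chosen after they were seen. CHST1, a sulfotransferase of keratan sulfate, had 0 counts in HK2 and fell from 7.04, 7.52 and 7.16 CPM in 786-O to 4.43, 3.42 and 3.68 CPM in 786-M1A (log2 fold change -0.92 ± 0.10, edgeR adjusted p = 2.48e-07). LRRC15, a membrane protein known from fibroblasts of tumour stroma, fell from 6.14, 4.92 and 5.03 CPM to 2.79, 2.32 and 2.41 CPM (-1.10 ± 0.12, edgeR adjusted p = 8.79e-08). EDA2R, the receptor of ectodysplasin A2, had 0 counts in HK2 and rose from 13.1, 13.7 and 13.3 CPM to 17.3, 18.4 and 17.1 CPM (0.40 ± 0.06, edgeR adjusted p = 2.67e-05). None of these genes overlapped between the cancer lines. LRRK2, a large kinase known from Parkinson disease, fell with overlapping libraries (-0.28 ± 0.09, edgeR adjusted p = 0.0124), and CARD6 was at 6.23 and 6.67 CPM without passing the test.

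Of the 10 members below the filter, 5 were higher and 1 lower in 786-M1A in the fit of the cancer lines alone. That is close to the share over all genes tested in that fit, of which 56.3% differed. A gene of the table overlapped 34 of the members, and for 26 of them it lay on the opposite strand.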
